A study of Homo sapiens with 4 samples.

Results

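Immediate early transcription factors were examined in MDA-MB-231Br breast cancer cells that carried a short hairpin RNA against YTHDF3 or a control hairpin. The group was chosen by gene symbol and held 10 genes, namely EGR1, EGR2, EGR3, FOS, FOSB, FOSL1, JUN, JUNB, IER2 and IER3. Of these, 9 had at least 1 named probe set among the 14884 genes with a name on the array, through 22 probe sets in all, and EGR2 was not measured. All 9 passed the filter on low values that left 12755 genes for testing. The group was put together with the differences between these same arrays already known, EGR1 above all, so the members' own differences are given as descriptions and without a test.

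There were 2 shYTHDF3 arrays and 2 shControl arrays. Both groups were MDA-MB-231Br cells, a brain-seeking derivative of the MDA-MB-231 line that the sample titles name by its parent, and both were transduced with lentivirus and selected with puromycin. They were grown in medium with serum, and the labels give no starvation or stimulation step and no time after transduction. The labels do not give the number of hairpins, the hairpin sequence, whether cells were clonal or whether replicates were grown apart. Any p-value therefore covers the spread among these 4 arrays, and that spread may be purely technical.

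Immediate early genes are transcribed within minutes of a growth factor, serum or stress signal, without new protein synthesis, and their short-lived mRNAs are soon cleared again. ERK and other MAP kinases act on serum response factor and its partner ELK1 at CArG boxes, and on CREB-type factors at cyclic AMP response elements (CREs), to switch these genes on. The FOS and JUN proteins pair through leucine zippers as the factor AP-1, the EGR proteins bind GC-rich DNA through zinc fingers, and IER2 and IER3 are small proteins induced in the same wave.

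The promoters of EGR1, FOS and JUN are shown because EGR1 had by far the largest difference among the members, while FOS and JUN are the founding AP-1 genes and differed less and in opposite directions. Each sequence is the 250 bases before the gene's start in RefSeq (GRCh38.p14), written 5′ to 3′ on the gene's own strand. The EGR1 stretch is chr5:138465229-138465478 on the plus strand, the FOS stretch is chr14:75278578-75278827 on the plus strand and the JUN stretch is chr1:58784048-58784297 on the minus strand. Capitals mark CArG boxes, the CRE core TGACGT on either strand (ACGTCA when read from the other strand) and the AP-1-like site TGACATCA.
EGR1: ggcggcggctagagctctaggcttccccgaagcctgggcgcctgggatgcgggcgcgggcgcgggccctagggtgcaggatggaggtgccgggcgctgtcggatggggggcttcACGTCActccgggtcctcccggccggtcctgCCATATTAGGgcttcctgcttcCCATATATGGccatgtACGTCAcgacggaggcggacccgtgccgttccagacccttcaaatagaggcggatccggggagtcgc
FOS: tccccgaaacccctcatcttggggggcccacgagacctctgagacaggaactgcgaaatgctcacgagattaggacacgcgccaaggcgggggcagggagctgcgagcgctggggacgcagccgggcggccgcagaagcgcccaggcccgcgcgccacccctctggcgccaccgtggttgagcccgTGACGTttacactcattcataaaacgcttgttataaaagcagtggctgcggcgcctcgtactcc
JUN: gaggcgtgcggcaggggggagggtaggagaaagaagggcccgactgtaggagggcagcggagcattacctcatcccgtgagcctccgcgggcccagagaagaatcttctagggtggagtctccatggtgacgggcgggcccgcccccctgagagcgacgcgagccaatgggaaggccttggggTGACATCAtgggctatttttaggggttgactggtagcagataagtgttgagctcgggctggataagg

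The EGR1 promoter held 2 CArG boxes, 105 to 96 and 83 to 74 bases before the start, and 2 CRE cores, at 136 to 131 and 67 to 62 bases. Only 1.16% of the 35116 RefSeq promoter entries held a CArG box in this window, and 0.0313% held 2 or more. The FOS and FOSB promoters each had 1 CRE core, which 7.10% of entries held, and no CArG box in these bases. Bases farther upstream were not searched, so the window cannot show whether a CArG box lies there. JUN had its AP-1-like site 67 to 60 bases before the start, and 2.37% of entries held that site. Of the 7 members with a promoter entry, JUNB and IER2 matched none of these motifs, and 1 of the 3 EGR2 entries held a CArG box. The AP-1 site TGACTCA, the EGR sites GCGGGGGCG and GCGTGGGCG and the ATF4-type site TGATGNAA, searched on both strands, had no match in the members' windows, against 4.20%, 4.72%, 0.720% and 3.14% of all entries. A match describes letters only and shows no binding.

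The values are log2 expression after RMA, and the 4 array medians lay between 3.20 and 3.22. Arrays of a group correlated at 0.992 in both groups across tested genes, and shYTHDF3 with shControl arrays at 0.986 to 0.987. The targeted gene itself had 0 named probe sets, so the knockdown labels carry no check from it. VIM, CD44, AXL and MSN, genes of mesenchymal breast cancer lines, stood at least 4.84 above the array median on every array. Among luminal breast genes, the receptors ESR1 and PGR lay below the array median on all 4 arrays, whereas KRT18 stood 5.06 to 5.78, EPCAM 3.41 to 3.57, FOXA1 1.43 to 2.10 and GATA3 1.21 to 1.56 above it. The leukocyte genes CD14 and LYZ, the fibroblast genes DCN and LUM and the endothelial genes PECAM1 and VWF lay below it on all 4 arrays, and the endothelial gene CLDN5 stood 0.84 to 1.15 above it. The mean level per marker of the 2 measured leukocyte genes (of 5 listed) was 2.45 to 2.68 in shYTHDF3 arrays and 2.47 to 2.62 in shControl arrays. That of the 3 measured endothelial genes (of 4) was 3.12 to 3.17 in shYTHDF3 arrays and 3.16 to 3.36 in shControl arrays, that of the 2 measured fibroblast genes (of 5) was 2.14 to 2.25 in shYTHDF3 arrays and 2.08 to 2.16 in shControl arrays, and that of the 6 measured luminal genes (of 7) was 5.17 to 5.18 in shYTHDF3 arrays and 4.95 to 5.10 in shControl arrays. The part of these markers in the results below was not tested.

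EGR1, a zinc finger factor induced by growth factors and stress, was the member that stood far apart. Its probe set of higher signal read 4.98 and 5.59 in the shYTHDF3 arrays, against 7.58 and 7.50 in the shControl arrays. Both shYTHDF3 arrays were low and the groups were well separated, although the shYTHDF3 pair differed by 0.61 and the shControl pair by only 0.08. The means were 5.29 ± 0.43 and 7.54 ± 0.05 (SD, n = 2 each), a log2 difference of -2.25 (SE 0.20, 95% interval -2.73 to -1.78), or 4.77-fold lower. The 4 pairings of a shYTHDF3 with a shControl array gave differences from -2.60 to -1.91, and EGR1 held rank 9 among the 12755 genes ordered from the most negative difference. In bulk RNA, less EGR1 mRNA per cell and fewer cells with the mRNA cannot be told apart.

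A second EGR1 probe set, 17000463, read 3.44 and 3.68 in shYTHDF3 arrays, against 3.84 and 4.36 in shControl arrays. Its groups did not overlap either, but its log2 difference was -0.54 (SE 0.22, from the fit on all probe sets), less than that of the first. Its levels lay near the array median, where RMA compresses weak signals. Which strand and which part of the gene each probe set covers was not analysed here, so both may not measure the same RNA. The cause of the unlike differences was not tested. Averaging both EGR1 probe sets gave a difference of -1.40. EGR3, the EGR family member known in mice for roles in muscle spindles and lymphocytes, read 3.51 and 3.50 in shYTHDF3 arrays and 3.88 and 3.77 in shControl arrays. It was lower in both shYTHDF3 arrays by little, with a log2 difference of -0.32 (SE 0.13) on a probe set that was also near the median.

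**Figure D1:**
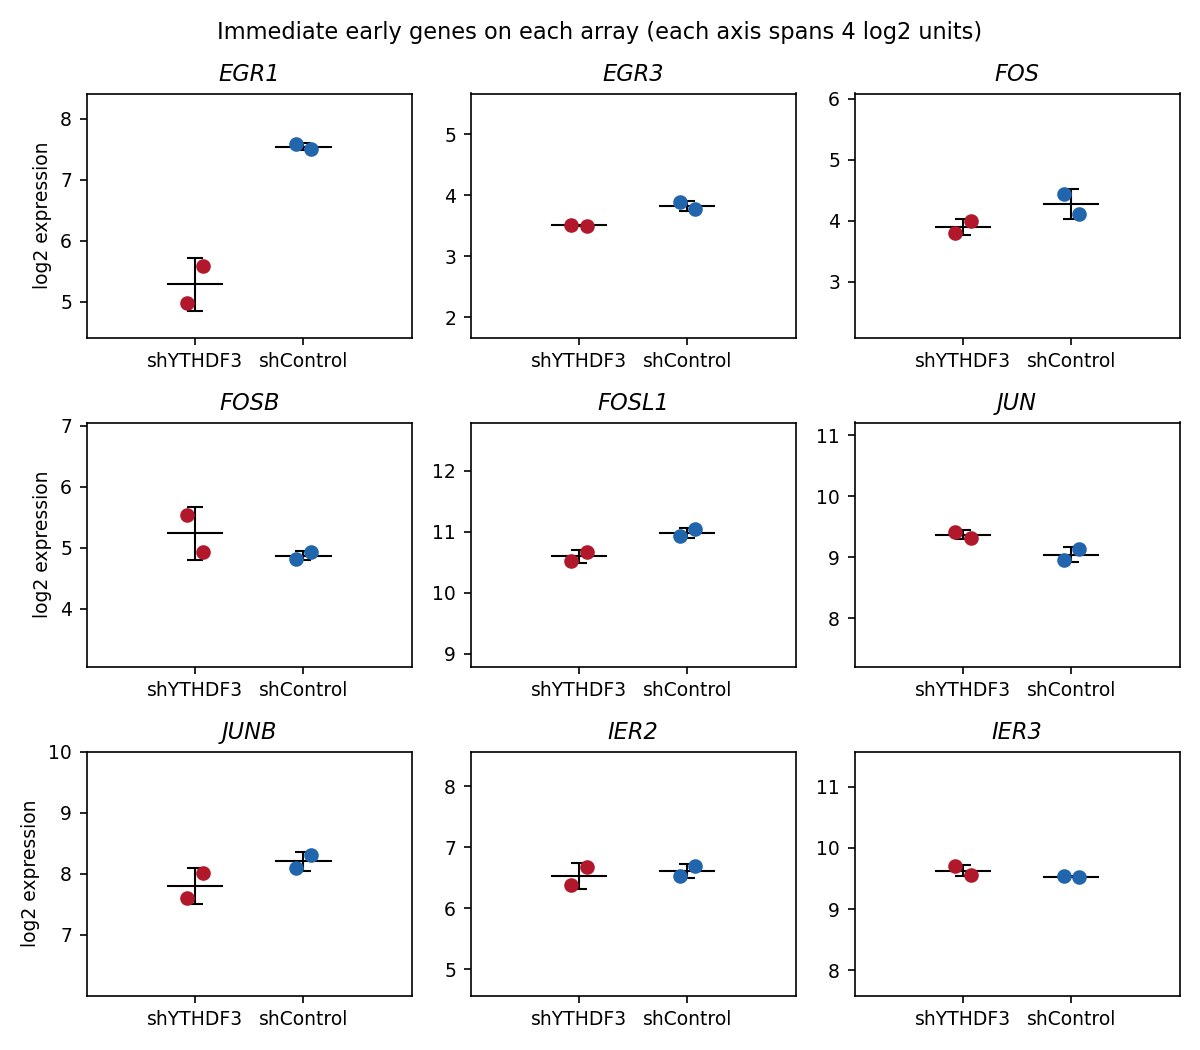
Log2 expression (vertical axes, each spanning 4 units) of the 9 measured members on each shYTHDF3 array (red points, left) and shControl array (blue points, right), with group mean (bar) and SD (whiskers, n = 2), for the probe set of highest mean. EGR1 shows the widest gap between groups, at 5.29 in shYTHDF3 and 7.54 in shControl cells, and the other 8 members differ by 0.40 or less.

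The FOS family showed no shared direction. FOS, the partner in the classic AP-1 dimer, read 3.80 and 3.99 in shYTHDF3 arrays, against 4.44 and 4.10 in shControl arrays. The shYTHDF3 arrays were lower without overlap, at a log2 difference of -0.38 (SE 0.16), and the nearest pair of arrays from the 2 groups was 0.11 apart. The second FOS probe set, 16794955, pointed the other way at 0.15 (SE 0.17) with overlapping arrays, reading 3.43 and 3.42 in shYTHDF3 arrays and 3.10 and 3.46 in shControl arrays. Averaged over both probe sets, the FOS difference was -0.11, though whether both read the same strand was not analysed here. For the first probe set alone, leaving out shControl replicate 1 gave -0.21 and leaving out shControl replicate 2 gave -0.55.

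FOSB, which also encodes the shorter deltaFosB protein, read 5.54 and 4.93 in shYTHDF3 arrays, against 4.82 and 4.93 in shControl arrays. A single shYTHDF3 array was high, while the other matched shControl replicate 2 to within 0.00057. Its log2 difference of 0.36 (SE 0.21) became 0.056 when shYTHDF3 replicate 1 was left out and 0.67 when shYTHDF3 replicate 2 was. The second FOSB probe set, 16863287, differed by 0.04 (SE 0.18), with overlapping arrays. Which strand each FOSB probe set reads was not analysed here, so the 0.36 and the 0.04 may not describe the same RNA.

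FOSL1 encodes FRA-1, a FOS protein that lacks the potent transactivation domain and is typical of mesenchymal breast cancer cells. It read 10.52 and 10.67 in shYTHDF3 arrays, against 10.93 and 11.04 in shControl arrays. Both shYTHDF3 arrays were lower, by a log2 difference of -0.39 (SE 0.13, 95% interval -0.70 to -0.08), or 1.31-fold.

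The JUN genes differed in opposite directions. JUN, the main AP-1 transactivator, read 9.42 and 9.32 in shYTHDF3 arrays, against 8.95 and 9.13 in shControl arrays. Both shYTHDF3 arrays were above both shControl arrays, at a log2 difference of 0.33 (SE 0.14, 95% interval 0.01 to 0.65). JUNB, a weaker activator that can oppose JUN, read 7.60 and 8.01 in shYTHDF3 arrays, against 8.09 and 8.31 in shControl arrays. The shYTHDF3 arrays were lower, at a log2 difference of -0.40 (SE 0.18, 95% interval -0.81 to 0.01), but shYTHDF3 replicate 2 stood only 0.08 below shControl replicate 1. Leaving out shYTHDF3 replicate 2 gave a JUNB difference of -0.61, and leaving out shYTHDF3 replicate 1 gave -0.19.

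By the probe set of highest mean, the IER genes gave the smallest differences among the members, although other IER3 probe sets differed by up to 0.35. IER2, a nuclear protein outside the zipper and zinc finger families, read 6.37 and 6.68 in shYTHDF3 arrays, against 6.53 and 6.69 in shControl arrays. The groups overlapped, with a log2 difference of -0.09 (SE 0.15, 95% interval -0.45 to 0.27), which turned to 0.065 without shYTHDF3 replicate 1. IER3, also called IEX-1, modulates cell survival and ERK signalling. It had 11 probe sets, but these held only 4 distinct sets of values, since 4 probe sets were identical to each other and 5 others likewise.

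The 4 identical IER3 probe sets read 9.70 and 9.56 in shYTHDF3 arrays, against 9.53 and 9.53 in shControl arrays, a log2 difference of 0.10 (SE 0.13). Probe sets 17017018 and 17039184 differed by 0.21 (SE 0.13) and 0.09 (SE 0.14). The 5 other identical probe sets, of lower signal, read 4.93 and 4.74 in shYTHDF3 arrays and 4.38 and 4.58 in shControl arrays, and differed by 0.35 (SE 0.15). With 1 array left out the IER3 difference ran from 0.033 to 0.17. All 4 IER3 measurements were positive, and only that of 17039184 had overlapping arrays. IER3 lies in the major histocompatibility region of chromosome 6.

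**Figure D2:**
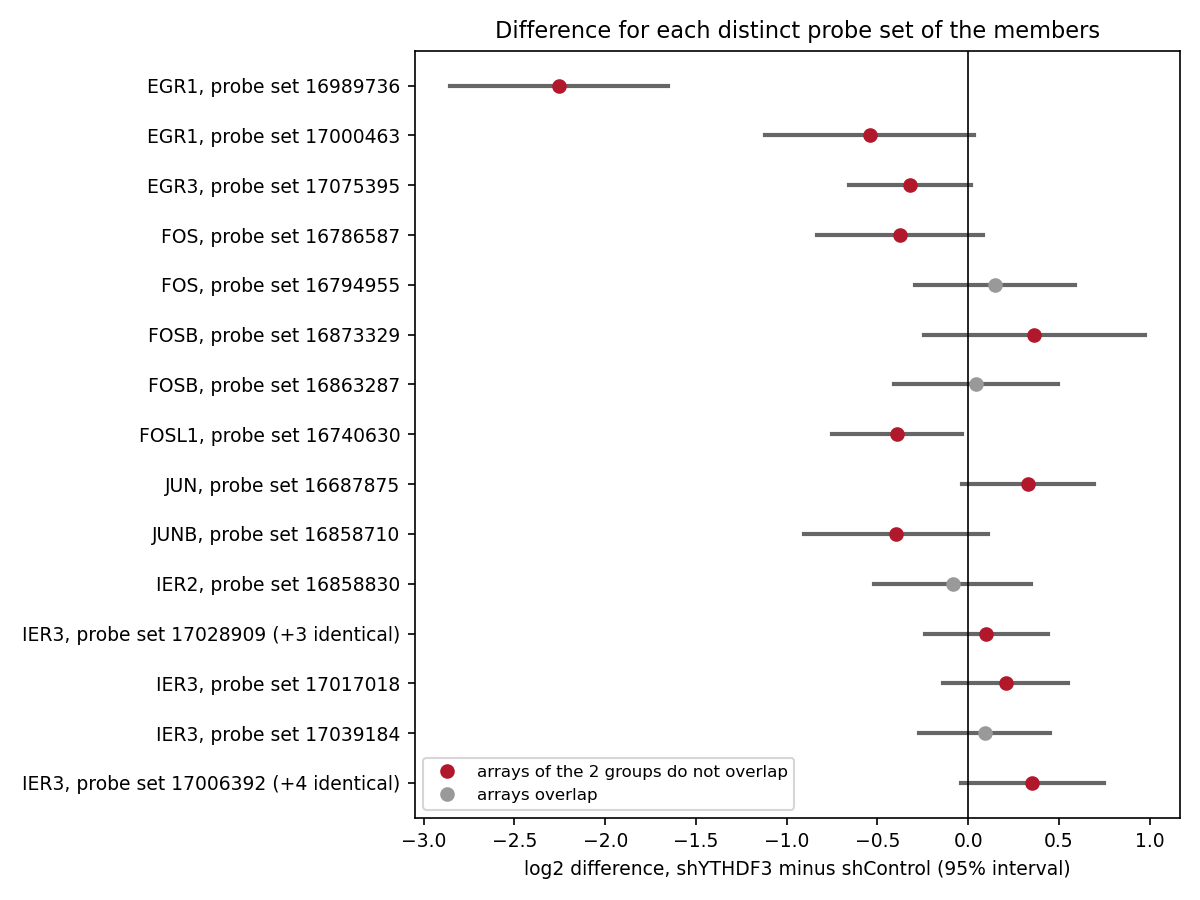
Log2 difference, shYTHDF3 minus shControl (horizontal axis, points) with its 95% interval (lines, limma on all probe sets above the filter) for the 15 distinct probe set measurements of the members. Red points mark probe sets whose arrays do not overlap between groups and grey points those that overlap. EGR1 probe set 16989736 lies at -2.25, and the 13 measurements of other members lie between -0.40 and 0.36.

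Of the 9 members measured, 6 had a negative and 3 a positive difference, with a median of -0.32, against a median of 0.004 over all genes tested. The arrays of the groups did not overlap for 5 lower and 3 higher members, where 22.8% of all tested genes were lower and 22.6% higher without overlap. EGR1 was the 1 member past an adjusted p of 0.05 in limma, where 0.753% of all genes passed, 85 of them lower and 11 higher in shYTHDF3 arrays. Nothing is read from these counts, because the same contrast was known when the members were listed. Without EGR1 the other 8 members ran from -0.40 to 0.36. Over all genes the median size of a difference was 0.15, and IER2 and IER3 were smaller than that.

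EGR1 did not pass in the fit on every probe set, where 0.0506% of 37532 probe sets passed and 2 members had an unadjusted p under 0.05. It also did not pass without shControl replicate 1 or without shControl replicate 2, although its log2 difference was then -2.22 and -2.29. Under quantile normalization, median centring and cyclic loess all 9 members kept their sign, and the median difference of all genes was then between 0.0009 and 0.015.

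Profiles over the 4 arrays were compared with that of EGR1 by Euclidean distance between values centred on each gene's mean. Symbols that begin with LOC were passed over. Among the other genes, those most like EGR1 were MIR222, DDIT4, SESN2, HSPA1B and MIR100. With 2 arrays in each group, this distance mostly restates how close a gene's difference lies to that of EGR1. From the most negative difference, where EGR1 held rank 9, these genes held ranks 10, 11, 7, 8 and 14. Their distances were 0.33, 0.37, 0.40, 0.42 and 0.47 log2 units, whereas the nearest member, JUNB, was at 1.87 and FOSB, the farthest, at 2.76. MIR222 is a microRNA locus, DDIT4 and SESN2 encode stress-induced inhibitors of mTORC1, HSPA1B encodes an inducible heat shock protein and MIR100 is another microRNA locus. MIR222 read 4.74 and 5.17 in shYTHDF3 arrays, against 7.38 and 6.88 in shControl arrays. MIR100 read 4.46 and 5.15 in shYTHDF3 arrays, against 6.59 and 6.60 in shControl arrays. In all 5 nearest genes, as in EGR1, shYTHDF3 replicate 1 was the lowest array, which their choice by closeness to EGR1 on these same arrays favoured. HSPA1B cannot be told apart from the near-identical HSPA1A.

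**Figure D3:**
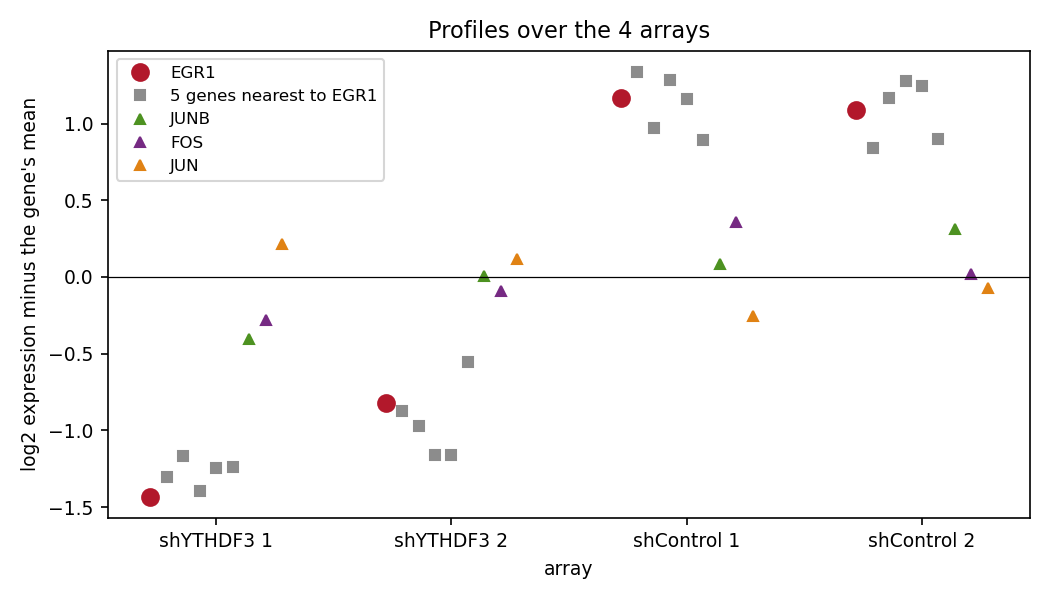
Log2 expression minus the gene's own mean over 4 arrays (vertical axis) on each array (horizontal axis) for EGR1 (red circles), the 5 genes nearest to it (grey squares) and JUNB, FOS and JUN (triangles). EGR1 and its 5 nearest genes are all below 0 on both shYTHDF3 arrays and above 0 on both shControl arrays, and the triangles stay near 0.

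Other immediate early genes had more negative than positive differences, and no single gene passed over all genes. This list and those that follow were chosen with earlier results of these data known, so their counts are given as descriptions. Of 30 listed genes 21 were tested, 0 passed in limma, and at an unadjusted p under 0.05 there were 9 lower and 1 higher. Over all genes tested, 8.48% were lower and 6.24% higher at that p, which is the background for the like counts of every list that follows. The list's median log2 difference was -0.23, against 0.004 over all genes, and 14 of the 21 were negative. Arrays did not overlap for 10 lower and 3 higher genes, against 22.8% lower and 22.6% higher over all genes. EGR4 and ATF3 are among the relatives that share the members' DNA-binding domains.

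ATF3, a stress-induced repressor of the same zipper class, read 3.67 and 2.74 in shYTHDF3 arrays, against 4.51 and 4.56 in shControl arrays. Its log2 difference was -1.33 (SE 0.27) with a limma adjusted p of 0.093, and it became -1.79 without shYTHDF3 replicate 1 and -0.87 without shYTHDF3 replicate 2. The 2.74 of shYTHDF3 replicate 2 lay below the array medians of 3.20 to 3.22, so the size of the ATF3 difference is not exact. MYC, the growth-promoting factor, read 9.21 and 9.45 in shYTHDF3 arrays, against 9.88 and 10.03 in shControl arrays, a difference of -0.63 (SE 0.14, limma adjusted p = 0.12). PLK3, a stress-responsive polo-like kinase, differed by -0.48 (limma adjusted p = 0.16). SOCS3, an inhibitor of cytokine receptor signalling, had the opposite sign, reading 6.77 and 6.59 in shYTHDF3 arrays and 5.72 and 6.06 in shControl arrays (0.79, limma adjusted p = 0.092).

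**Figure D4:**
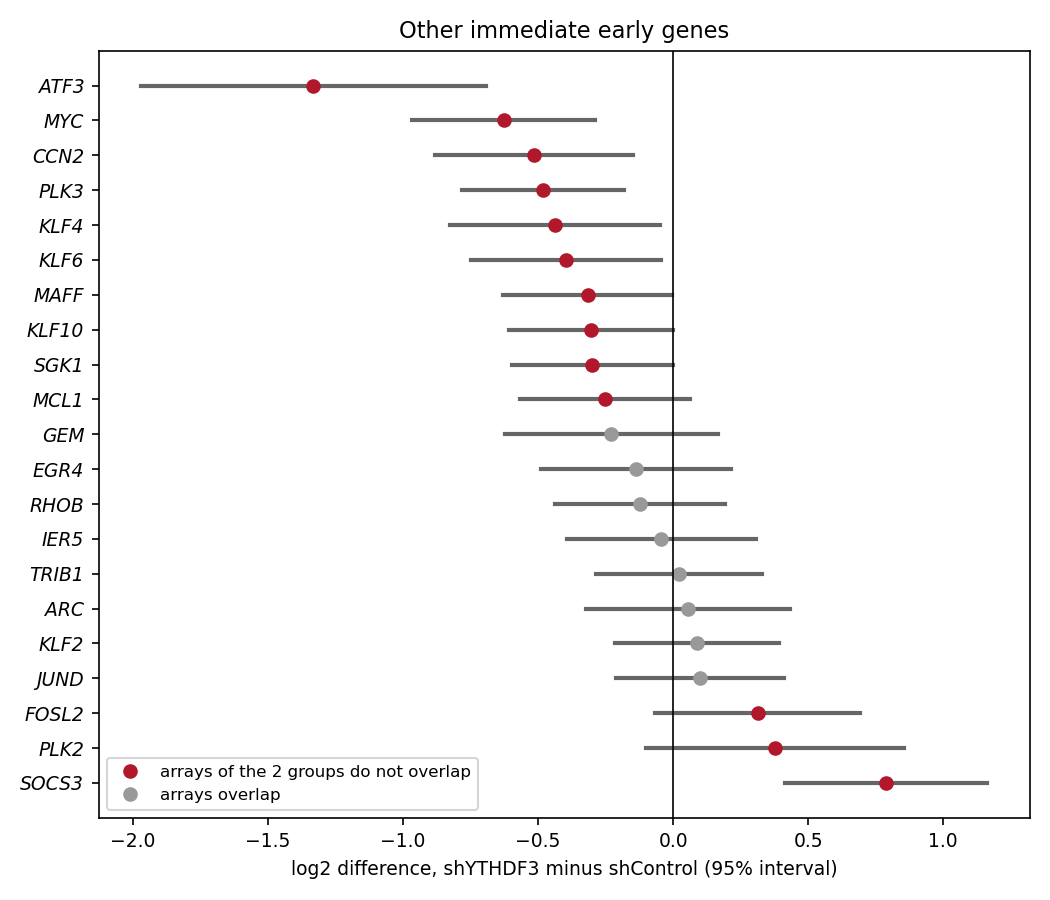
Log2 difference, shYTHDF3 minus shControl (horizontal axis, points), with the 95% interval from limma (lines), for the 21 tested genes of the other immediate early list, ordered by difference. Red points mark genes whose arrays do not overlap between groups and grey points those that overlap. ATF3 lies lowest at -1.33 and SOCS3 highest at 0.79.

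Among the other AP-1 family genes 8 of 14 were tested and 0 passed in limma, with 4 lower and 0 higher by an unadjusted p under 0.05 (8.48% and 6.24% of all genes) and a median of -0.19. The lists share genes, so their counts are not separate. ATF3 and MAFF, among the lower genes here, and FOSL2 and JUND also stood in the list of other immediate early genes. JDP2, a repressor that dimerises with JUN proteins, read 5.70 and 5.72 in shYTHDF3 arrays, against 6.47 and 6.26 in shControl arrays. That was a difference of -0.65 (SE 0.14, limma adjusted p = 0.098) without overlap. ATF2, an AP-1 partner activated by JNK and p38, differed by -0.38 and MAFF, a small MAF protein, by -0.32, and neither passed. The EGR co-repressors and relatives were all 5 tested, and 0 passed in limma or had an unadjusted p under 0.05. NAB1, which binds EGR proteins and represses them, differed by 0.27, WT1 by 0.23, EGR4 by -0.14 and SP1 by -0.05.

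Upstream of the immediate early genes, no tested gene passed. Of 17 growth factor ligands and receptors 10 were tested, with a median of -0.12, 0 past the limma threshold and 2 lower at an unadjusted p under 0.05. EREG, an EGFR ligand, read 9.38 and 9.68 in shYTHDF3 arrays, against 10.15 and 10.02 in shControl arrays, a difference of -0.56 (SE 0.15, limma adjusted p = 0.17). HBEGF, another EGFR ligand, differed by -0.35, the receptor MET by -0.23 and the ligand EPGN by 0.34. Of the RAS-RAF-MEK-ERK cascade 10 of 20 genes were tested, 0 passed in limma, 1 lower and 1 higher gene had an unadjusted p under 0.05, and the median was -0.01. The adaptor GRB2 differed by 0.39, the exchange factor SOS2 by -0.45, the kinase MAP2K1 by 0.27 and the RAS inactivator NF1 by -0.24. For SOS2, leaving out shYTHDF3 replicate 1 gave -0.68 and leaving out shYTHDF3 replicate 2 gave -0.21.

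The JNK and p38 kinases had 13 of 18 genes tested, 0 past the limma threshold, 1 lower and 2 higher by an unadjusted p under 0.05, and a median of 0.03. MAPK11, the beta form of p38, differed by 0.60, MAP3K11 by 0.64, MAP2K4 by -0.49 and MAP3K7, also called TAK1, by -0.26. With shControl replicate 1 left out MAP3K11 differed by 0.31 and MAP2K4 by -0.72, and with shControl replicate 2 left out by 0.96 and -0.26. Of the 16 factors bound at immediate early promoters 12 were tested, with 0 past the limma threshold, 2 lower and 1 higher by an unadjusted p under 0.05 and a median of -0.04. YY1 differed by 0.38, MEF2D by -0.31, CREB1, which binds CREs, by -0.30 and the coactivator EP300 by 0.21.

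Genes driven by ERK activity had differences of both signs. Of 15 ERK feedback inhibitors and output genes 10 were tested, with 0 past the limma threshold, 2 lower and 2 higher by an unadjusted p under 0.05 and a median of -0.05. DUSP5, a nuclear ERK phosphatase, read 7.23 and 7.54 in shYTHDF3 arrays, against 7.82 and 8.06 in shControl arrays (-0.55, limma adjusted p = 0.19). DUSP5 had 2 probe sets, and averaging them gave a difference of -0.30. DUSP4, another nuclear MAP kinase phosphatase, read 7.55 and 7.33 in shYTHDF3 arrays, against 7.04 and 6.90 in shControl arrays (0.47, limma adjusted p = 0.20). CCND1, cyclin D1, differed by 0.49 and SPRY4, an inhibitor of RAS signalling, by -0.40. Arrays did not overlap for 3 lower and 3 higher of the 10 tested genes, these 4 among them, against 22.8% lower and 22.6% higher over all genes.

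Downstream, 3 genes from the target lists passed the limma threshold, all lower in shYTHDF3 arrays. FN1, fibronectin, a matrix protein listed as an AP-1 target, read 6.09 and 5.68 in shYTHDF3 arrays, against 7.37 and 7.40 in shControl arrays. Its log2 change was -1.50 (SE 0.16, limma adjusted p = 0.012), the 1 of 9 tested AP-1 targets of 18 listed to pass. LOX, the collagen crosslinking enzyme, differed by -0.74 (limma adjusted p = 0.071), CCND1 by 0.49 and HMGA1, a chromatin protein, by -0.32. The AP-1 target list had a median of -0.24, with 5 negative and 4 positive differences, and its collagenase MMP1 differed by 0.19 in the other direction. By an unadjusted limma p under 0.05, 3 AP-1 targets were lower and 1 higher.

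Of the EGR1 targets 9 of 16 were tested and 2 passed the limma threshold, both lower in shYTHDF3 arrays. By an unadjusted limma p under 0.05, 2 were lower and 0 higher, and 7 differences were negative and 2 positive. Arrays did not overlap for 6 lower and 2 higher genes, against 22.8% lower and 22.6% higher over all genes. VEGFA, the main angiogenic growth factor, read 5.73 and 5.76 in shYTHDF3 arrays, against 6.76 and 6.85 in shControl arrays (-1.06, SE 0.13, limma adjusted p = 0.018). GDF15, a stress-induced cytokine, read 4.84 and 4.52 in shYTHDF3 arrays, against 5.85 and 5.58 in shControl arrays (-1.03, SE 0.17, limma adjusted p = 0.049). Both genes also respond to stress factors other than EGR1. The adhesion molecule ICAM1 differed by -0.31 and the hyaluronan receptor CD44 by 0.17, and the list's median was -0.13. For ICAM1, leaving out shYTHDF3 replicate 1 gave -0.59 and leaving out shYTHDF3 replicate 2 gave -0.032. Of the 96 genes that passed over all genes tested, 85 were lower and 11 higher in shYTHDF3 arrays. In all, 3 of the 100 tested genes of the lists passed, against 0.753% of all genes, and the passing of FN1, VEGFA and GDF15 was lost without shControl replicate 1, without shControl replicate 2 and in the fit on every probe set. FN1 was also lost without shYTHDF3 replicate 2, VEGFA and GDF15 without either shYTHDF3 array, and GDF15 also with no filter, with quantile normalization and with robust eBayes. With 1 array left out the log2 change of FN1 ran from -1.70 to -1.29, that of VEGFA from -1.10 to -1.01 and that of GDF15 from -1.19 to -0.87.

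AU-rich element decay factors clear short-lived immediate early mRNAs. Of 14 genes listed around this decay, 4 were tested, 0 passed in limma or had an unadjusted p under 0.05, and the median was 0.17. KHSRP, a decay-promoting protein, differed by 0.29, TIAL1 by 0.25, TIA1 by 0.10 and the deadenylase PARN by -0.07. TIAL1 had 2 probe sets, and averaging them gave a difference of 0.61. ZFP36, ZFP36L1, ZFP36L2 and ELAVL1, well-known proteins that bind AU-rich elements, were not analysed here.

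**Figure D5:**
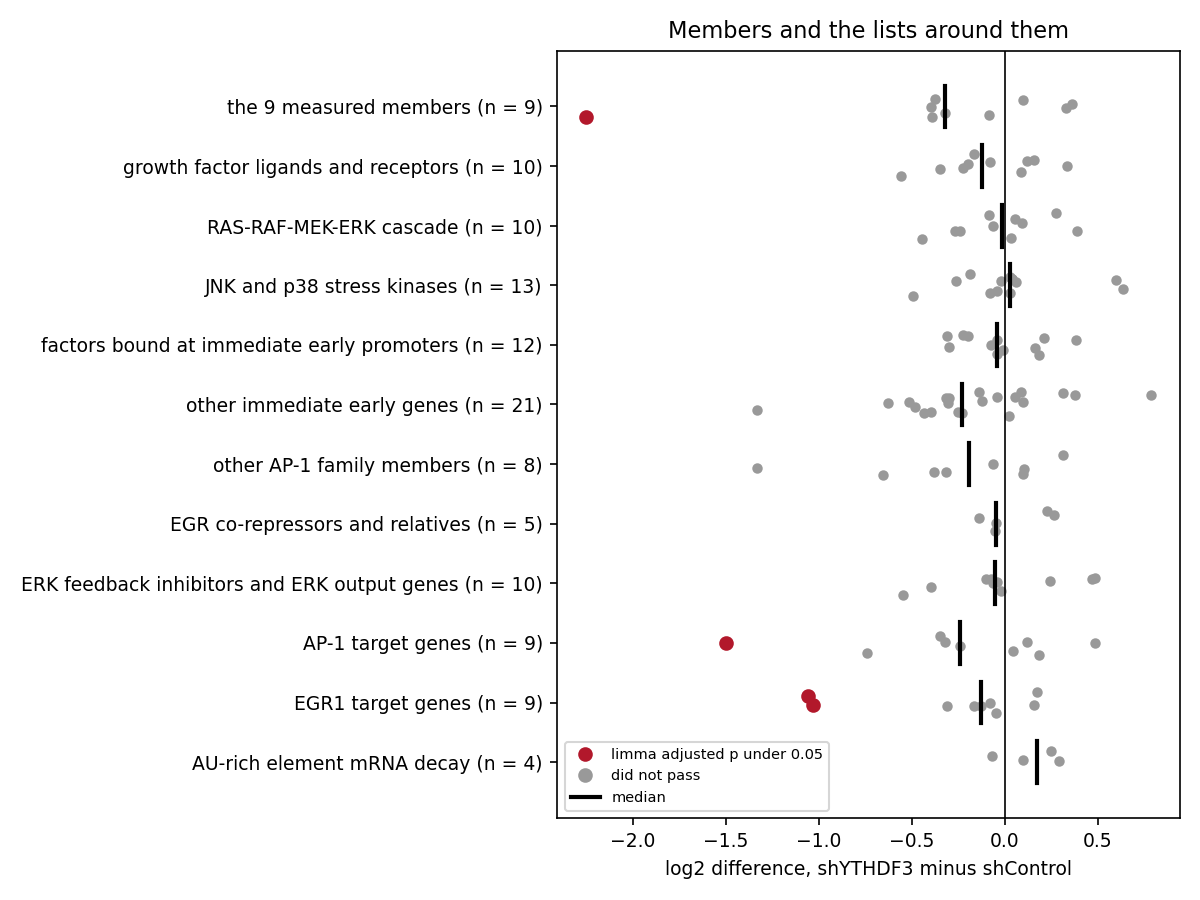
Log2 difference, shYTHDF3 minus shControl (horizontal axis), of each tested gene in the 9 measured members and in the 11 lists around them (rows, points spread vertically for legibility), with the list median (black bar). Red points passed a limma adjusted p of 0.05. The passing points are EGR1 among the members, FN1 among AP-1 targets, and VEGFA and GDF15 among EGR1 targets.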

How the data were processed

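Total RNA from MDA-MB-231Br cells was hybridised to Affymetrix arrays, 2 per group, grouped by sample title. The deposited table held log2 expression per probe set, and RMA is named per the submitters' processing notes, with neither version nor settings stated there. The platform annotation named a gene for 16098 of the 53617 probe sets, and identical rows were kept. The number of arrays limits the precision.

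The probe set of highest mean stood for a gene. Genes below the 30th percentile of probe set means (2.54) were left out, and the rest were tested 2-sided without covariates (limma 3.58.1, run in R 4.3.3; eBayes moderation with 2 residual and 5.30 prior degrees of freedom), with Benjamini-Hochberg adjustment over all genes and a threshold of 0.05. A permutation of 2 against 2 arrays cannot give a p below 0.333. A second fit took every probe set above the filter. The limma step was tested on simulated data. The members and the 11 lists were chosen with earlier results of these data known. Named were all members, per list the passing genes and up to 4 of smallest p, and the 5 genes nearest to EGR1. MMP1 and the 4 AU-rich element binding proteins not analysed were named after the values were seen. Alternatives covered filter, probe set rule, normalization, variance model, replicate block, threshold and leaving out each array. No coordinates of probe sets are given, since no source used here names the array's build.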

Additional observations from a re-analysis of the deposited data

How the results depend on the processing

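The count of genes past the limma threshold was 96, and it was 167 with the filter at the 50th percentile, 19 with every probe set as its own row, 375 with an intensity trend, 11 with a replicate block and 250 at an adjusted p under 0.1. Leaving out 1 array gave 0 to 36. It was 0 when either shControl array was left out, where 1370 (replicate 1) and 1392 (replicate 2) genes had an unadjusted p under 0.05. With an array left out, the lone array of its group is assumed to vary like the other group. The members past the threshold numbered 1, and 0 with every probe set as its own row and 0 with the replicate block (2 and 4 at an unadjusted p under 0.05 from limma), and 0 to 1 with 1 array left out. Genes of the lists past the threshold numbered 3, and 0 with every probe set, 10 with an intensity trend and 0 with the replicate block (17 and 23 at an unadjusted p under 0.05 in the settings that gave 0), and 0 to 2 with 1 array left out. The replicate numbers share only a number: deviations of same-numbered arrays correlated at 0.043, so the block rests on no stated pairing.

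The sign of a named gene turned 6 times, always with 1 array left out and never for a gene past the threshold: IER2 ran from -0.24 to 0.065, EGR4 from -0.28 to 0.00040, PARN from -0.30 to 0.16 (turned in 2 of the 4), SP1 from -0.14 to 0.036 and TIA1 from -0.038 to 0.24. The EGR1 difference ran from -2.56 to -1.40 over 14 alternatives and passed in 10 of them. In fits that kept all 4 arrays, ATF3, LOX, EREG, MYC, JDP2, CCND1 and SOCS3 passed with an intensity trend, and LOX also with the filter at the 50th percentile. GDF15 passed in 5 of 14 alternatives. With the replicate block the limma adjusted p was 0.081 for EGR1, 0.11 for FN1 and 0.12 for both VEGFA and GDF15. Leaving out 1 array moved the difference by over 1.5 times for 5 of the 9 measured members (FOS, FOSB, JUNB, IER2 and IER3), for 16 of the 39 other named genes that did not pass and for 0 of the 8 that did. The causes were not tested. Weak signals near or below the array median, as for EGR3, FOS, EPGN, WT1 and ATF3 in shYTHDF3 arrays, are compressed by RMA, so differences there are not exact.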
